A study of Mus musculus with 2 samples.

Results

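miR-122, miR-192 and miR-194 are microRNAs best known from the liver, and the results below describe them in exosomes that cultured mouse macrophages released. The set holds 5 mature miRNAs, chosen by name (mmu-miR-122-5p, mmu-miR-122-3p, mmu-miR-122b-3p, mmu-miR-192-5p and mmu-miR-194-5p, written below without the species prefix), out of 1976 mature miRNAs listed in each of the 2 libraries. The M1 exosomes came from bone marrow-derived macrophages of C57BL/6 mice aged 5 to 6 weeks, kept for 7 days in M-CSF (10 ng/mL) and then for 1 day in IFN-γ (20 ng/mL). The M2 exosomes came from macrophages of the same strain and age, kept in the same M-CSF culture and then for 1 day in IL-4 (20 ng/mL). All cells were then moved to medium without serum for 2 days, and vesicles were pelleted from that medium by ultracentrifugation. Each group is 1 library, called the M1 and the M2 library below, and no library of unpolarised macrophages, of the cells themselves or of the medium was analysed here. No value has a replicate error, and every difference below is between 2 libraries and not between the 2 conditions.

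A microRNA is cut from a hairpin precursor, and 1 arm of the hairpin (5p or 3p) is usually kept as the working strand while the other is lost. Bases 2 to 8 of the working strand, the seed, pair with target mRNAs and lower their output. miR-122-5p is the dominant miRNA of hepatocytes, where it sustains cholesterol and lipid metabolism, and it appears in blood when the liver is injured. miR-192-5p and miR-194-5p come from shared precursors and are abundant in liver, gut and kidney epithelium, where hepatocyte nuclear factors drive their genes and p53 induces them. miR-215-5p is a close relative of miR-192-5p that is made from the second of these precursor loci.

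The sequences show which entries can be told apart in a sequencing library. The mature strands of the miR-192, miR-194 and miR-215 group are given 5′ to 3′ from RefSeq (GRCm38.p6), with the seed in capitals.
miR-192-5p: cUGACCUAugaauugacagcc
miR-215-5p: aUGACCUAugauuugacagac
miR-194-5p: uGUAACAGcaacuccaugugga
miR-194-1-3p: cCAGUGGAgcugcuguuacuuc
miR-194-2-3p: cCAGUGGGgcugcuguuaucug
miR-192-5p and miR-215-5p share the seed UGACCUA and 18 of 21 bases. Counted from 1 at the 5′ end, with miR-192-5p first, they differ at C1A, A12U and C20A. Among 1677 listed miRNAs with a RefSeq mature sequence, miR-215-5p was the 1 other that carries the miR-192-5p seed, and 0 others carry that of miR-194-5p, GUAACAG. miR-194-5p is the same in both of its hairpins, so its value is the sum of 2 loci that these data do not separate. The 3p arms of those hairpins do differ, at 4 of 22 bases, and each has an entry of its own.

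The precursors show the arrangement of the arms, with mature arms in capitals. Mir194-2 and Mir192 lie 115 bases apart on the plus strand of chromosome 19 (chr19:6264643-6264728 and chr19:6264844-6264932), and GENCODE M21 places no other gene over either. Mir194-1 and Mir215 lie 195 bases apart on the plus strand of chromosome 1 (chr1:185313319-185313385 and chr1:185313581-185313692). There Mir194-1 lies in an intron and Mir215 in an exon of the noncoding gene 2010103J01Rik, and both lie in an intron of Iars2 on the opposite strand.
Mir194-2: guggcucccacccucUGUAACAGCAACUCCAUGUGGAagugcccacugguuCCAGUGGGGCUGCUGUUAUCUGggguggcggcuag
Mir192: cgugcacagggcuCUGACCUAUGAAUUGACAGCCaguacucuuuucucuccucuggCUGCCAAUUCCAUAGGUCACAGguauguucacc
Mir194-1: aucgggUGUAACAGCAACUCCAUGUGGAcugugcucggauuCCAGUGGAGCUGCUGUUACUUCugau

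Each library has 1 deposited value per miRNA, on a log2(level + 1) scale, and the level in the authors' normalized units is 2 to the power of that value, minus 1. Levels summed to 686353 units in the M1 library and 734637 units in the M2 library, and 1229 miRNAs were listed at 0 in both. The total number of reads is unknown, but low levels fell on even steps among 175 miRNAs used for M1, whose M2 value was below 1 read, and among 129 used for M2, which were at 0 in M1. The steps put the worth of 1 read near 0.81 units in the M1 library and 1.23 units in the M2 library. They hold for the miRNAs used only. Other low levels lay off them, such as 1.39 units for miR-145a-5p in the M2 library and 0.70 units for miR-133b-3p in the M1 library. For other miRNAs, bounds given in reads are thus approximate. The 175 used for M1 had M2 levels above 0 but at most 0.098 units, which are off the M2 steps. A value of 0 therefore allows up to 3 reads, or 2.42 units in the M1 library and 3.68 units in the M2 library, for counting error only. A miRNA was compared if it reached 10 units in at least 1 library, and it was called different at 2-fold, a log2 ratio (M1 minus M2) of 1 or more in size. The macrophage origin is that given by the labels. All 8 myeloid miRNAs listed were above 0 in both libraries. The 5 red blood cell miRNAs and the 15 common in serum and plasma, listed below, were too, so presence alone cannot check that origin. Every miRNA above 0 in the M1 library was also above 0 in the M2 library, so a value above 0 in M2 is no separate evidence. miR-146a-5p had 120526 units in the M1 library and 50604 units in the M2 library, and miR-223-3p had 630.2 units in the M1 library and 1019 units in the M2 library.

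miR-122-5p stood far above the rest of the set. It had a log2 value of 15.87, or 59763 units, in the M1 library, and 13.63, or 12650 units, in the M2 library. It ranked 2 of 1976 in the M1 library, where it held 8.71% of the summed level, and 14 of 1976 in the M2 library, where it held 1.72%. The level was thus high in both libraries, and it was 4.72-fold higher in the M1 library (log2 ratio 2.24). Among the 17 miRNAs that averaged 10000 units or more over the libraries, this was the highest ratio, ahead of 1.25 for miR-146a-5p, which dampens NF-κB signalling. Among the 154 with a mean of at least 100 units it ranked 5, with miR-451a highest at 2.72, and among all 337 miRNAs compared it ranked 24.

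miR-192-5p and miR-194-5p were present in both libraries at far lower levels, and they differed little between the libraries. miR-192-5p had a log2 value of 8.61, or 389 units, in the M1 library and 8.26, or 304 units, in the M2 library, a log2 ratio of 0.35. miR-194-5p had 6.92, or 120.3 units, in the M1 library and 6.58, or 94.8 units, in the M2 library, a log2 ratio of 0.34. Both thus lay slightly higher in the M1 library and within 2-fold. miR-122-3p, the other arm of the miR-122 hairpin, had 3.23 units in the M1 library, near 4 reads, and 0.052 units in the M2 library, below the worth of 1 read. Its M1 level lay below the 3.68 units that a 0 allows in the M2 library, so no fold is given.

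**Figure D1:**
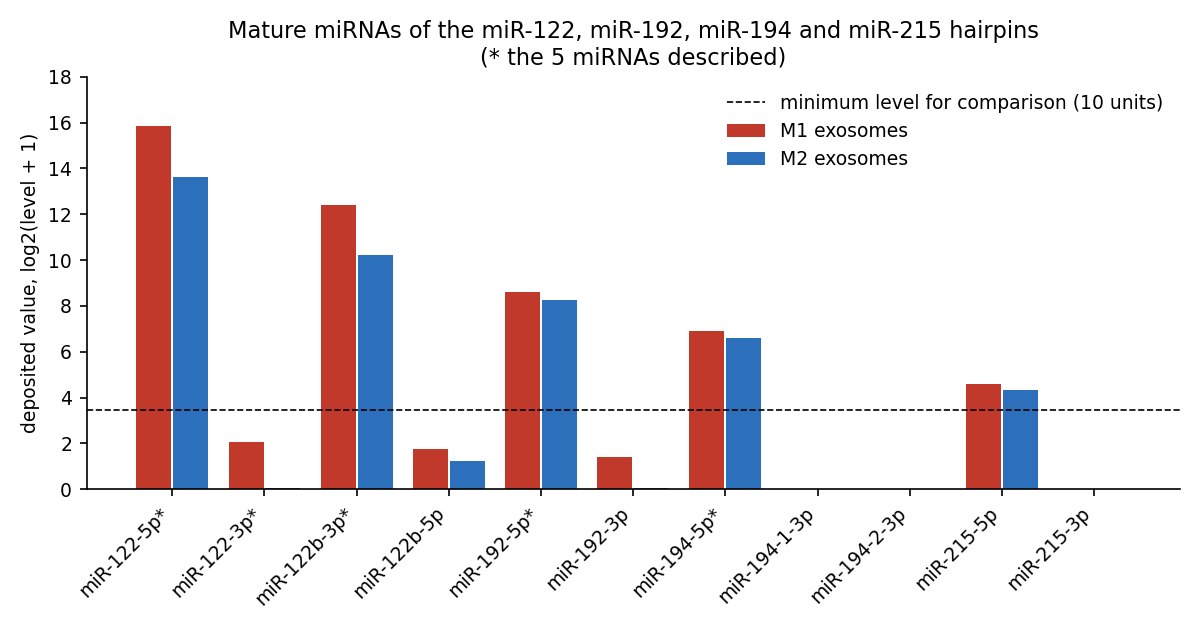
Deposited log2(level + 1) values in the M1 library (red) and the M2 library (blue) for every mature miRNA listed from the miR-122, miR-192, miR-194 and miR-215 hairpins; 1 bar is 1 library, and the dashed line marks 10 units. miR-122-5p (15.87 in M1 and 13.63 in M2) and miR-122b-3p (12.41 in M1 and 10.22 in M2) differed by more than 2-fold, while the bars of miR-192-5p, miR-194-5p and miR-215-5p were nearly level.

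Of the 5 miRNAs, 4 reached the minimum level. Of these 4, miR-122-5p and miR-122b-3p were at least 2-fold higher in the M1 library, and miR-192-5p and miR-194-5p lay within 2-fold. Over all 337 miRNAs compared, 88 (26.1%) were at least 2-fold higher in the M1 library and 77 (22.8%) in the M2 library, together 49.0%. Scaled to the total without the miR-122 entries, the split was 103 higher in the M1 library to 59 higher in the M2 library, with a median log2 ratio of 0.25. The median log2 ratio of the 337 was 0.04 as deposited. With 49.0% past 2-fold, such a difference does not by itself set miR-122 apart. The miR-192-5p and miR-194-5p ratios lay 0.31 and 0.30 above that median.

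**Figure D2:**
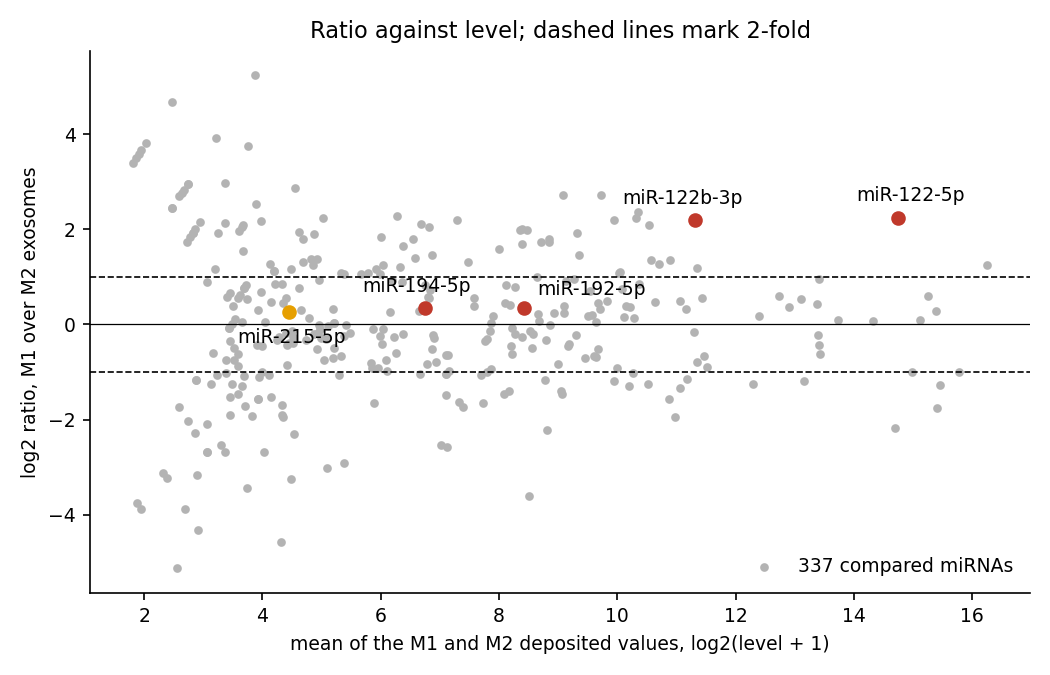
Log2 ratio of M1 over M2 exosomes (vertical) against the mean deposited log2(level + 1) value of the libraries (horizontal) for the 337 miRNAs compared; red points are the miRNAs described, the orange point is miR-215-5p, and dashed lines mark 2-fold. miR-122-5p (2.24) and miR-122b-3p (2.19) lie above the upper line, and miR-192-5p (0.35), miR-194-5p (0.34) and miR-215-5p (0.26) lie near 0.

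The contrast between miR-122 and the miR-192/194 group compares miRNAs within each library, so a common factor on all levels of a library cancels. A normalization that acts differently on high and low levels would not cancel, and none was tried. The level of miR-122-5p was 153.8 times that of miR-192-5p in the M1 library and 41.5 times in the M2 library. It was 497 times that of miR-194-5p in the M1 library and 133.4 times in the M2 library. The log2 ratio of miR-122-5p exceeded that of miR-192-5p by 1.89 and that of miR-194-5p by 1.90. The mature strands of miR-192-5p and miR-194-5p are 21 and 22 bases long, and the levels are not corrected for length.

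Within the miR-192/194 group the proportions were nearly the same in both libraries. miR-192-5p stood at 3.23 times the level of miR-194-5p in the M1 library and 3.21 times in the M2 library. miR-215-5p, the relative with the shared seed, had 22.95 units in the M1 library and 18.99 units in the M2 library, a log2 ratio of 0.26. miR-192-5p was 16.9 times as high as miR-215-5p in the M1 library and 16.0 times in the M2 library. The order miR-192-5p, miR-194-5p, miR-215-5p therefore held in both libraries. The 7 entries of the group together held 0.078% of the summed level in the M1 library and 0.057% in the M2 library. The 4 entries of miR-122 and miR-122b together held 9.50% in the M1 library and 1.88% in the M2 library. Any reads that miR-122-5p and miR-122b-3p share, a possibility described below, are counted more than once in these sums.

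The 3p arms of the miR-192/194 group were at or near 0. miR-192-3p had 1.61 units in the M1 library, near 2 reads, and 0.035 units in the M2 library, below the worth of 1 read. miR-194-1-3p, miR-194-2-3p and miR-215-3p were listed at 0 in both libraries. The 2 arms that would separate the chromosome 1 and chromosome 19 copies of miR-194 therefore gave no information on which locus supplied miR-194-5p.

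For miR-122 the lower arm was a very small part of the higher one. miR-122-3p stood at 0.0054% of the miR-122-5p level in the M1 library. In M2 exosomes it lay below 1 read, and 3 reads there would be 0.029% of miR-122-5p. For scale, 32 hairpins have both arms listed under 1 name and a higher arm of at least 1000 units in both libraries, and their median share was 0.23% in the M1 library and 0.18% in the M2 library. The miR-122 share was the second lowest of the 32 in the M1 library, after miR-99a, whose miR-99a-3p was at 0. Among the 9 of these hairpins at 10000 units or more, shares in the M1 library reached 5.06% for miR-221. The 4 reads behind miR-122-3p leave its share imprecise, and hairpins at lower levels cannot show shares this small. The share of miR-192-3p, 0.42% of miR-192-5p in the M1 library, is at or below what 3 reads allow (0.62%).

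**Figure D3:**
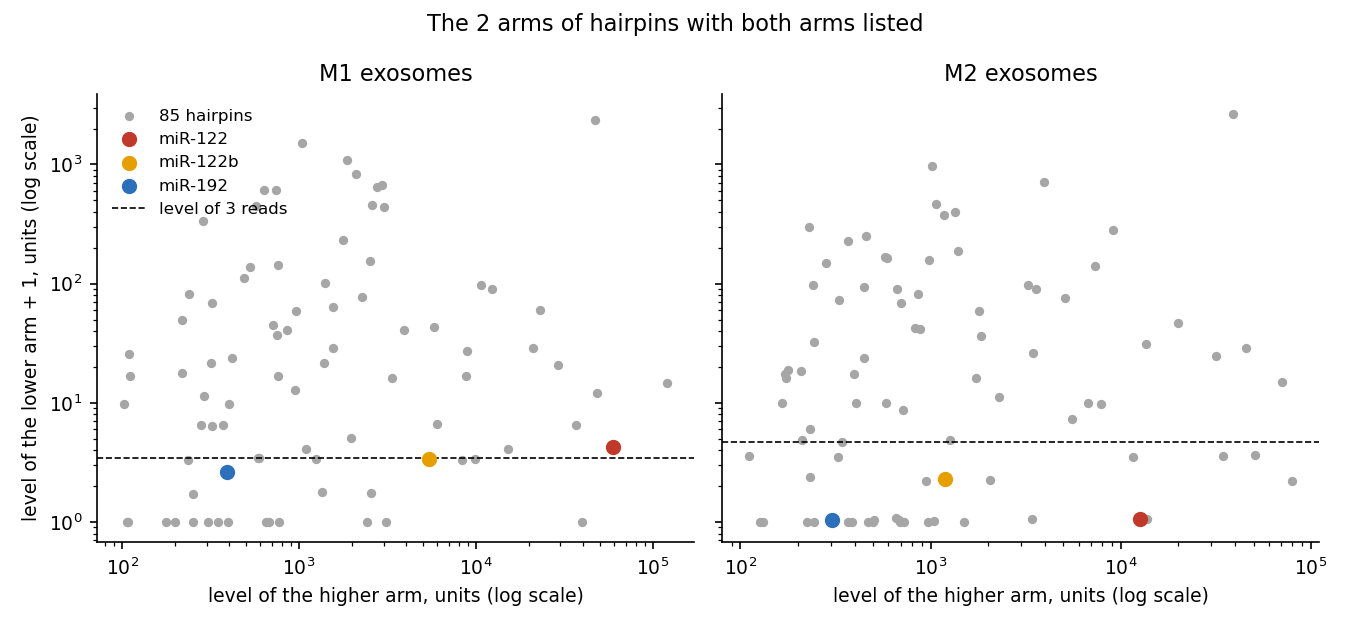
Level of the lower arm plus 1 (vertical, log scale) against the level of the higher arm (horizontal, log scale), both in units, for 85 hairpins with both arms listed and a higher arm of at least 100 units in both libraries, in the M1 library (left) and the M2 library (right); the dashed line marks 3 reads. The miR-122 hairpin (red) pairs a 59763-unit arm with a 3.23-unit arm in the M1 library, and the miR-192 hairpin (blue) has its lower arm under the line in both libraries.

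miR-122b-3p, an entry whose hairpin lies over that of miR-122, moved with miR-122-5p. It had a log2 value of 12.41, or 5434 units, in the M1 library and 10.22, or 1189 units, in the M2 library, and was 4.57-fold higher in the M1 library (log2 ratio 2.19). It stood at 9.09% of the miR-122-5p level in the M1 library and 9.40% in the M2 library. Its own other arm, miR-122b-5p, had 2.38 units in the M1 library and 1.31 units in the M2 library, at or under 3 reads in both. RefSeq places Mir122 at chromosome 18, 65248861 to 65248926, and Mir122b at 65248863 to 65248921 (GRCm38.p6), so all 59 bases of Mir122b lie inside Mir122. GENCODE M21 has an exon of the noncoding gene AC157910.3 there, on the strand of Mir122. The tables used here give no strand for Mir122b, and whether the counting used strand is not stated in the labels. Reads of miR-122-5p and miR-122b-3p may therefore be shared, and the pair may be 1 observation.

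Entries that overlap on opposite strands were looked up at other loci, although it is not known here that Mir122b is one of them. Among the listed miRNAs outside chromosome 18 with a RefSeq mature sequence, 35 pairs have mature sequences that overlap on opposite strands. Both entries were compared in 8 of them. In these 8 pairs the lower entry stood at a median of 7.11% of the higher one in the M1 library and 6.50% in the M2 library. miR-3074-5p stood at 7.57% of miR-24-3p in the M1 library and 5.80% in the M2 library, and miR-9b-3p at 6.05% of miR-9-5p in the M1 library and 5.39% in the M2 library. miR-122b-3p lay just above these medians. The log2 ratios of the entries in a pair differed by 0.08 to 1.11 over the 8 pairs (median 0.49), and by 0.05 between miR-122b-3p and miR-122-5p. At the low extreme, miR-374c-3p was at 0.96% of miR-374b-5p in the M1 library and 0.67% in the M2 library. At the high extreme, miR-203-3p was at 161.3% of miR-203b-5p in the M1 library and 70.2% in the M2 library.

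**Figure D4:**
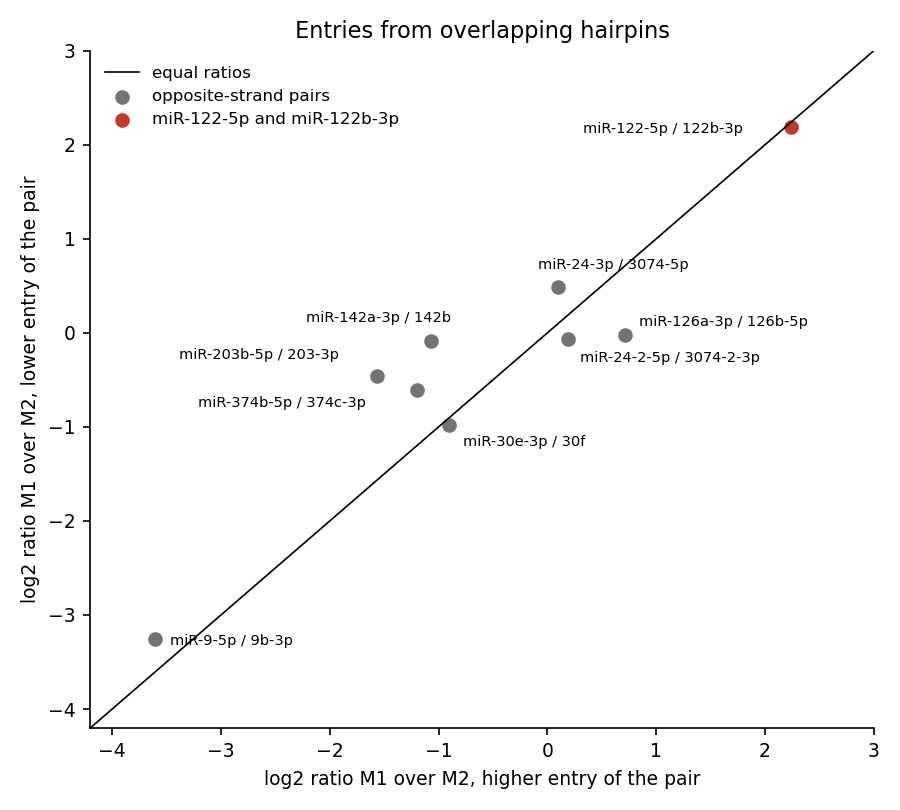
Log2 ratio of M1 over M2 exosomes of the lower entry (vertical) against that of the higher entry (horizontal) for 8 pairs of mature miRNAs that overlap on opposite strands (grey) and for miR-122-5p with miR-122b-3p (red); the line marks equal ratios. The red point lies next to the line, at 2.24 for miR-122-5p and 2.19 for miR-122b-3p, and the lowest point has -3.61 for miR-9-5p and -3.26 for miR-9b-3p.

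The miRNAs with the most similar pair of values were found by distance between the log2 values, over 2 libraries. The nearest to miR-122-5p was miR-27b-3p at a distance of 1.36, with log2 values of 15.55 in the M1 library and 14.96 in the M2 library, followed by let-7i-5p, miR-10a-5p, miR-221-3p and miR-24-3p at 1.61 to 2.08. These 5 had log2 ratios of 0.08 to 0.60, so none of them came close to the 2.24 of miR-122-5p. miR-122b-3p was nearest to miR-106b-3p (0.71), and next came miR-30a-5p, miR-22-3p, miR-10b-5p and let-7b-5p. miR-192-5p had close neighbours in miR-30a-3p (0.34), miR-128-3p, miR-320-3p, miR-339-5p and miR-501-3p, all within 0.39. miR-194-5p had still closer ones in miR-30b-3p (0.15), miR-330-5p, miR-574-3p, miR-326-3p and miR-322-3p, all within 0.35. Distances depend on how many miRNAs share a level. Only 17 averaged at least 10000 units, against 154 with at least 100 units, so the wider distances of miR-122-5p do not by themselves set it apart.

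Other miRNAs with known roles in liver metabolism lay mostly within 2-fold. Of 16 on this list 9 were compared, of which 1 was at least 2-fold higher in the M1 library, 2 in the M2 library and 6 lay within 2-fold. Over all compared the shares were 26.1% higher in the M1 library and 22.8% in the M2 library, so the count in M2 is near the background, and no difference from it was tested. The median log2 ratio of the 9 was -0.83, against 0.04 over all compared. miR-148a-3p, which limits uptake of LDL cholesterol, had log2 values of 14.83 in the M1 library and 16.10 in the M2 library, a log2 ratio of -1.27. miR-378a-3p, from the gene of the metabolic coactivator PGC-1β, had a log2 ratio of -1.57. miR-22-3p was the member higher in the M1 library, at 1.28, and miR-101a-3p had 0.38. miR-802-5p, which is linked to hepatic insulin resistance, and miR-365-3p were listed at 0 in both libraries. Several of these miRNAs are common outside the liver, and macrophages express some of them.

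miR-122-5p was above every miRNA on the lists for gut and kidney epithelium, pancreas, muscle, neurons, stroma and red blood cells, in both libraries. Over 13 miRNAs of gut and kidney epithelium, where miR-192 and miR-194 also occur, the highest level was that of miR-183-5p, with 197.9 units in the M1 library and 245.1 units in the M2 library. Of the 8 compared there, 2 were at least 2-fold higher in the M1 library and 0 in the M2 library, with a median of -0.36. Over all compared the shares were 26.1% higher in the M1 library and 22.8% in the M2 library, so the count in M1 is near the background. No difference from these shares was tested for this list or for those that follow. miR-200a-3p, an epithelial miRNA, had 119.6 units in the M1 library and 33.0 units in the M2 library. Its relatives on the list were split. miR-200c-3p had a log2 ratio of 1.37, miR-200b-3p had -0.61 and miR-429-3p had -0.495, while miR-141-3p was below the minimum. None of 4 pancreatic miRNAs reached the minimum, and their highest level was 3.23 units in the M1 library and 6.27 units in the M2 library. The 7 muscle miRNAs reached 16.6 units in the M1 library and 20.2 units in the M2 library. Of the 2 compared, 0 were at least 2-fold higher in the M1 library and 1 in the M2 library (miR-133b-3p), with a median of -1.69, or -1.19 with its M1 level set to that of 3 reads. The 7 neuronal miRNAs summed to 472 units in the M1 library and 1546 units in the M2 library. Most of the M2 sum was miR-9-5p, with 102.8 units in the M1 library and 1264 units in the M2 library. miR-128-3p had 333 units in the M1 library and 251 units in the M2 library. Of the 4 neuronal miRNAs compared, 1 was at least 2-fold higher in the M1 library and 2 in the M2 library. Their median was -1.42, or -0.91 with miR-138-5p set to 3 reads in the M1 library. miR-124-3p, a defining neuronal marker, was at 0 in both libraries.

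**Figure D5:**
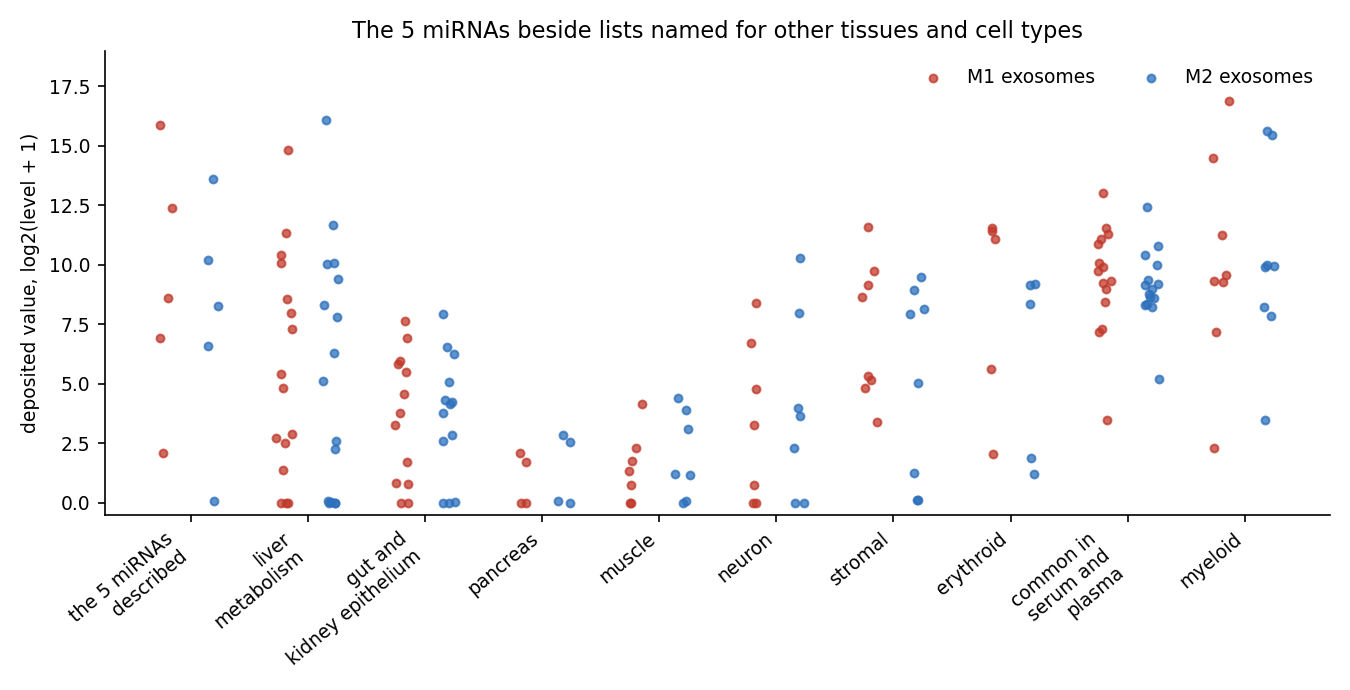
Deposited log2(level + 1) values (vertical) of the 5 miRNAs described and of the members of 9 lists named for a tissue, a cell type or serum, in the M1 library (red, left of each pair) and the M2 library (blue); 1 point is 1 miRNA in 1 library, spread sideways for legibility. The highest of the 5 is miR-122-5p at 15.87 in M1 and 13.63 in M2, while the pancreatic and muscle points stay below 5.

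The red blood cell markers compared, and 4 of 7 stromal markers, were at least 2-fold higher in the same library as miR-122-5p. Among them miR-144-5p, miR-145a-5p and miR-145a-3p reached the minimum level in the M1 library only, so they could be called only in that direction. Over all compared, 26.1% were at least 2-fold higher in the M1 library and 22.8% in the M2 library, and no list was tested against these shares. All 4 erythroid miRNAs compared, of 5 listed, were at least 2-fold higher in the M1 library, with a median log2 ratio of 2.54. They include miR-144-5p, whose M2 level lay under 3 reads, and miR-486a-5p and miR-486b-5p, which had similar levels and may share reads. Those last entries were not among the opposite-strand pairs found above. The median was the same with miR-144-5p set to 3 reads. The 5 summed to 7948 units in the M1 library and 1498 units in the M2 library. miR-451a, which red cell precursors make in large amounts, had 2182 units in the M1 library and 330 units in the M2 library. Of 8 stromal miRNAs 7 were compared, 4 were at least 2-fold higher in the M1 library, 0 in the M2 library and 3 stayed below 2-fold. The 4 include miR-145a-5p and miR-145a-3p, 2 arms of 1 hairpin, whose M2 levels lay under 3 reads. With each library divided by its summed level the count was 5, since miR-199b-5p had a ratio of 0.999 as deposited. The median log2 ratio of the 7 was 1.79, also with both miR-145a arms set to 3 reads in the M2 library. The 8 summed to 5007 units in the M1 library and 1781 units in the M2 library. miR-10b-5p had a log2 ratio of 2.09 and miR-199a-3p 1.79, while miR-143-3p had -0.33, with 395 units in the M1 library and 498 units in the M2 library. Of 15 miRNAs common in serum and plasma, which include miR-451a and miR-486a-5p, 3 were at least 2-fold higher in the M1 library and 2 in the M2 library, with a median of 0.46. They summed to 23184 units in the M1 library and 14214 units in the M2 library. miR-16-5p, a common serum miRNA, had a log2 ratio of -0.41. The 8 myeloid miRNAs were split, 3 at least 2-fold higher in the M1 library and 2 in the M2 library, with a median of -0.68. With the total scaled without the miR-122 entries these numbers were 3 for M1 and 0 for M2, so the M2 calls depend on the scaling. The part of other cell types or of carried-over serum in the miR-122 values was not tested.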

How the data were processed

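Small RNA libraries were made from 500 ng of RNA with a NEBNext small RNA kit, per the labels' protocols. Bowtie2, bedtools and mm10 are named in the submitters' processing notes. Not given in the sources used here are the counting rule, its use of strand, the treatment of reads with several matches and the normalization. The deposited values are log2 values, 1 per mature miRNA; that they are log2(level + 1) was settled from even steps among low levels. The worth of 1 read was fitted to 175 miRNAs for M1 and 129 for M2, of which 97.7% in each library were whole multiples within 0.1 read. M2 values of 175 miRNAs lay below 1 read (at most 0.098 units), so the libraries appear to have been normalized together. Total depth is unknown, and no interval on single values is given.

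The log2 ratio is the difference of the deposited values, M1 minus M2, with their pseudocount of 1, which understates differences of low miRNAs. With 1 library per group no test was made. The members and the 10 lists were chosen with earlier results of these data known. miRNAs named are the 5 members, those of their loci and paralogs, their 5 nearest by value, opposite-strand partners and up to 4 list members above 100 units. miR-16-5p, miR-124-3p, miR-133b-3p, miR-138-5p, miR-144-5p, miR-365-3p, miR-802-5p and the hairpin arms beside miR-122 were named after their values were seen. The same holds for miR-141-3p, miR-145a-5p, miR-145a-3p, miR-200b-3p, miR-200c-3p and miR-429-3p. Sequences come from RefSeq, GRCm38.p6, the assembly family of mm10; 1677 miRNAs had one. The procedure was tested on simulated data with counting error alone and a fixed worth of a read in each library. Those data hold no variation between replicate libraries, so they do not show how reliable a 2-fold call is. Python 3.11.15, numpy 2.4.6 and pandas 2.3.3 were used.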

Additional observations from a re-analysis of the deposited data

How the results depend on the processing

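No paired analysis was possible because M1 and M2 exosomes were sequenced once each, which also keeps any library from being left out. The ratios of miR-122-5p, miR-122b-3p, miR-192-5p and miR-194-5p kept their sign and their side of the 2-fold line under 4 other scalings and pseudocounts of 0.5 and 5, with miR-122-5p between 2.17 and 2.45 and miR-192-5p between 0.28 and 0.57. Scaling to the total without the miR-122 entries raised every ratio of high levels by 0.21. miR-122-3p, below the minimum level, had a nominal log2 ratio of 2.01, which was 0.70 with a pseudocount of 5. The miR-122-5p ratio exceeded that of miR-192-5p by 1.89 under each of these settings, and that of miR-194-5p by 1.90 to 1.91. A common factor cancels in these differences, and the pseudocounts hardly move levels this high. The settings could therefore not change them, and a normalization that depends on level was not tried. Counts of miRNAs at least 2-fold different depended on the minimum level, which changes how many miRNAs enter. They were 201 higher in the M1 library and 229 higher in the M2 library with no minimum, 37 (M1) and 33 (M2) with a minimum of 100 units, and 55 (M1) and 37 (M2) with 10 units required in both libraries. The other scalings gave 85 to 103 higher in the M1 library and 59 to 83 higher in the M2 library.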
